A study of Mus musculus with 9 samples.

Results

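The genes described here encode the proteins of the cytosolic ribosome. They were taken as all genes whose annotated symbol starts with Rpl or Rps followed by a number, or with Rplp, leaving out the Rps6k kinases and the pseudogene and Gm names. Each gene was read by the probe set with the highest mean log2(signal + 16) over all arrays among those that name this gene alone. This gave 47 genes, 26 of the large and 21 of the small subunit, of 12393 genes that a probe set of the array names alone. A further 28 ribosomal protein genes were named only together with other genes or copies; 25 of these could be read at such shared probe sets and were looked at separately, and Rpl35a, Rpl36a and Rpl36al were not analysed here.

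Ribosomal proteins are built with ribosomal RNA into a large subunit, which joins amino acids, and a small subunit, which reads the messenger RNA. Their messenger RNAs begin with a run of pyrimidines, the 5′ TOP element, through which mTOR signalling turns their translation up or down together. Neurons hold many ribosomes in the cell body, where they form the Nissl substance, and spinal muscular atrophy (SMA) is a disease in which motor neurons die because the SMN protein is scarce.

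Expression was measured in motor neurons of the lumbar cord that were collected by laser microdissection, in 3 groups of 3 mice with 1 mouse per array. The transplanted SMA mice received cells labelled NSC, which in this study stands for neural stem cells. The SMA mice and the wild-type mice had the same surgery with vehicle alone. All animals were operated on at postnatal day 1 and killed at 13 days of age; the SMA mice are described as transgenic, and the labels give neither their alleles and strain nor the sex of any animal. With bulk captures, fewer cells of a type and less RNA per cell cannot be told apart.

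The values are MAS5 signals, a brightness per probe set in arbitrary units, and they were scaled to the same trimmed mean on every array. Median signals were 31.4 to 35.8. Of 8 motor neuron markers 7 had a probe set and 1, the transcription factor Isl2, was bright enough to test; their summed signal was 135.5 to 245.4 on the transplanted SMA arrays, 76 to 168.5 on the SMA arrays and 81.2 to 145.5 on the wild-type arrays. The defining markers Slc18a3, Slc5a7, Isl1 and Mnx1 had mean signals of 13.4, 7.9, 8.83 and 9.38, so the captures are called motor neurons by their label and these markers do not show it. General neuron markers (Nefl, Nefm, Nefh, Stmn2, Snap25 and Tubb3) and markers of glia were read on every array. The 6 of 6 neuron markers summed to 1462.1 to 3689.9 in transplanted SMA and 1189.1 to 2530.1 in SMA. In wild type they summed to 1862.4 to 2209.6. The 5 oligodendrocyte markers with a probe set, of 6, summed to 25560 to 33712 in transplanted SMA, 17981 to 31433 in SMA and 23391 to 27014 in wild type. The 6 of 6 microglia markers summed to 4325 to 8053 in transplanted SMA, 7463 to 9775 in SMA and 4927 to 9964 in wild type. Other features of the arrays were uneven. The summed signal of 5 skeletal muscle markers was 2189 on SMA 1 and 2709.1 on SMA 2, where the other 7 arrays had 45.7 to 110.8. SMA 3 and wild type 3 led in the signal of 18S ribosomal RNA, with 2764.7 and 2939.6 where the others had 839.2 to 1831.9. The actin 3′/5′ ratio, a sign of RNA quality, was also highest there, at 4.32 and 3.66 where the others had 2.48 to 3.11. The Gapdh 3′/5′ ratio ordered the arrays differently, with 3.2 to 3.82 in transplanted SMA, 3.3 to 4.26 in SMA (the highest on SMA 1) and 3.19 to 3.63 in wild type. Xist was high on the 3 transplanted SMA arrays (366.1 to 739.6), on SMA 1 and on SMA 2 (600.7 and 879.5), and low on SMA 3 (47.6) and the wild-type arrays (23.5 to 32.9). The Y-linked Eif2s3y, too dim to test, read 0.4, 0.3 and 84.8 in transplanted SMA and 0.5, 0.1 and 108.9 in SMA. On the wild-type arrays it read 49, 54.7 and 75.1. Kdm5d, also Y-linked and dim, was likewise lowest on transplanted SMA 1 and 2 and on SMA 1 and 2. Transplanted SMA 3 had signal of Xist and of both Y-linked genes, and the reason was not tested. These transcripts followed the groups in part, so sex cannot be fully told apart from group. The erythroid markers, of which 2 of 3 had a probe set, summed to 412.4 to 819.7 in transplanted SMA, 595.6 to 693.1 in SMA and 1113.1 to 2259.6 in wild type, nearly all of it from the heme enzyme Alas2. The part of these features in the results below was not tested. Values without single arrays are given in places as description.

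The pyrimidine run at the start was looked for in the promoters of these genes. Start sites were taken from RefSeq on GRCm38.p6, which had a promoter for 41 of the 47 genes. A run of at least 7 C or T letters on the gene's strand, touching the 10 bases on either side of the start, was present in 24 of 41 (58.5%), against 22.5% of 27025 genes with a promoter and 17.4% of 69 genes for mitochondrial ribosomal proteins. A gene with several promoters counted if any of them matched, here and below. The share was 58.3% for the large subunit (14 of 24) and 58.8% for the small subunit (10 of 17). The letters CTTTC, searched on the gene's strand from 20 bases before to 30 after the start and free to overlap such a run, were in 31.7%, against 7.66% of all genes with a promoter. They were in 41.7% of large and 17.6% of small subunit genes. The letters CCGGAAG, which factors of the ETS family bind, were found on either strand of the 300-base promoters in 48.8%, against 9.93% of all genes with a promoter and 37.7% of those of the mitochondrial ribosomal proteins. A match is a description of the letters and not of a bound site.

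The starts of 6 genes whose groups did not overlap in a comparison below are printed as examples with and without an annotated run. They are not all such genes, so no share with a run is read from them. Rplp0, for instance, also belongs there and had no run. Each line holds 20 bases before and 10 from the start onwards, 5′ to 3′ on the gene's strand, with the run in capitals. The positions are chr9:44407694-44407723 for Rps25 (plus strand), chr3:90213639-90213668 for Rps27 (minus), chr7:141447631-141447660 for Rplp2 (plus), chr2:39005122-39005151 for Rpl35 (minus), chr10:128549159-128549188 for Rpl41 (minus) and chr4:136053384-136053413 for Rpl11 (minus).
Rps25: TCCTTTTTTTCCgacatcttagcgaggctg
Rps27: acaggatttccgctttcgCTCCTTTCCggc
Rplp2: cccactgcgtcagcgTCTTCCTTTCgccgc
Rpl35: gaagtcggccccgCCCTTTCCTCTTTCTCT
Rpl41: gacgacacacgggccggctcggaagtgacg
Rpl11: gcctcctgacccataaggccacggggccgg
The run of Rps25 spans 14 bases and begins before its window. It also ends before the annotated start, so it lies upstream of the annotated message. The runs of Rps27 and Rplp2 span 9 and 10 bases and cross the annotated start. The run of Rpl35 spans 18 bases and goes on past the end of its window. Rpl41 and Rpl11 had no run of at least 7 letters touching the 10 bases on either side of the annotated start.

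Most of the probe sets used for these genes gave bright signals, which depend on the probes as well as on the amount of message. Of the 47 genes, 44 were in the brighter 50% of probe sets that were tested, all 21 of the small and 23 of the large subunit. Ranked by mean signal among the probe sets, the median tested gene lay at percentile 98.75, and 34 had a mean log2(signal + 16) of at least 9. The 3 genes that were too dim to test were Rpl12 at this probe set and the paralogues Rpl3l, a muscle form of Rpl3, and Rpl39l, a testis form of Rpl39. The 47 probe sets together held 2.87%, 2.6% and 2.58% of the summed signal on the transplanted SMA arrays, 2.98%, 2.93% and 2.88% on the SMA arrays, and 2.53%, 2.53% and 2.79% on the wild-type arrays. The 3 SMA arrays therefore lay above all others, by little. With their further and shared probe sets included this did not hold. SMA 1 then held 9.76% and transplanted SMA 1 9.81%, while SMA 2 and SMA 3 held 10% each.

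Signals of the 34 brighter members varied less between arrays than those of other probe sets above the same floor of brightness. Brightness above that floor was not matched, so no trait particular to these genes is read from it. The median SD of log2(signal + 16) over the 9 arrays was 0.156 for the 34 brighter members and 0.243 for 1205 other probe sets with a mean of at least 9; within groups it was 0.153 and 0.244. The steadiest was Rps3a1, a small subunit protein at the mRNA exit, with an SD of 0.077. It read 3802.3, 3367.4 and 3862.6 in transplanted SMA, 3738.7, 3787.7 and 3973.4 in SMA, and 3613.6, 3480.5 and 3858.5 in wild type. Next came the large subunit gene Rpl37a (SD 0.10) and the stalk gene Rplp0 (SD 0.103). The largest SDs belonged to Rps25 (0.48), Rpl39 (0.455) and Rps27 (0.451), all read by dim probe sets.

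Both subunits moved alike across the arrays. For each array, the median over the genes of a subunit was taken of each gene's deviation from its own mean over the 9 arrays, on the log2(signal + 16) scale. The large subunit lay at 0.06, -0.085 and -0.06 on the transplanted SMA arrays, at 0.14, 0.06 and 0.04 on the SMA arrays, and at -0.10, -0.13 and -0.002 on the wild-type arrays. The small subunit lay at 0.03, -0.11 and -0.02 in transplanted SMA, at 0.01, 0.12 and 0.13 in SMA, and at -0.10, -0.14 and 0.04 in wild type. All 3 SMA arrays were above their gene means in both subunits, and wild type 1, wild type 2 and transplanted SMA 2 were the lowest. Over both subunits together, SMA 1, SMA 2 and SMA 3 were at 0.11, 0.10 and 0.10, while transplanted SMA ran between -0.10 and 0.04 and wild type between -0.14 and 0.02. The medians of all tested probe sets stayed between -0.02 and 0.03.

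The difference between the subunits did not separate the groups. Large minus small was 0.03, 0.02 and -0.04 in transplanted SMA, 0.13, -0.06 and -0.08 in SMA, and -0.002, 0.008 and -0.04 in wild type. The SMA arrays held both the highest and the lowest of these values, with SMA 1 alone on the side of the large subunit. Group means of this difference were 0.004 ± 0.037 in transplanted SMA, -0.002 ± 0.118 in SMA and -0.012 ± 0.026 in wild type (SD, n = 3 each). The contrast was 0.01 for SMA minus wild type and 0.006 for transplanted SMA minus SMA, and for transplanted SMA minus wild type it was 0.016, against a pooled SD within groups of 0.073. Without SMA 1 and SMA 2, the arrays with muscle transcripts, the first of these was -0.10 and the second 0.12, each from 1 remaining SMA array.

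**Figure D1:**
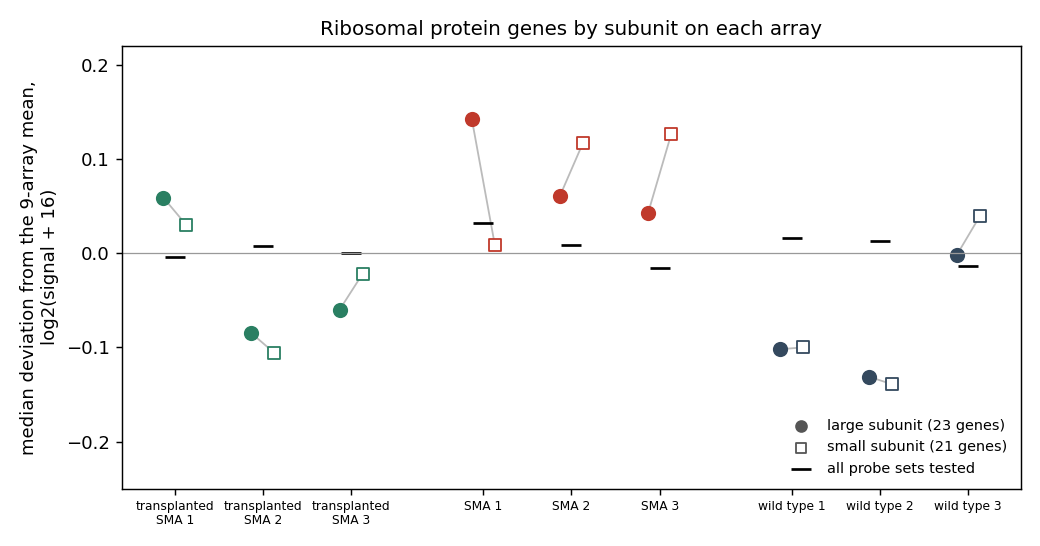
Median deviation of large (filled circles) and small (open squares) subunit genes from each gene's mean over the 9 arrays, on the log2(signal + 16) axis, with black dashes for all tested probe sets. The 3 SMA arrays have both subunits above 0, wild type 1 and wild type 2 have both at or below -0.10, and wild type 3 lies close to 0.

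The comparison of SMA with wild type asks how the disease genotype altered these messages. No ribosomal protein gene passed limma's test at a Benjamini-Hochberg adjusted p of 0.05 (0 of 44; smallest adjusted p = 0.459), and 0.0442% of all tested probe sets did. Most differences were nevertheless on one side: 39 of 44 genes were positive, where 51% of all tested probe sets and 41.7% of the other bright ones were. The median difference was 0.16 for the 44 genes, 0.15 for the large and 0.17 for the small subunit, against 0.006 for all tested probe sets and -0.04 for the other bright ones. With arrays centred on their medians 34 of 44 were positive, where 40.2% of all tested probe sets were, and the median was 0.10. At an unadjusted p under 0.05, 5 genes were higher and 0 lower in SMA, where 2.71% and 3.32% of all tested probe sets were. The genes share arrays and are not independent of each other, so these counts describe the 6 mice compared. Markers of other cells moved between the same groups, with 6 of 6 microglia markers positive (median 0.35), 0 of 5 oligodendrocyte markers positive (median -0.37) and 4 of 4 tested muscle markers positive (median 2.06). Mixed directions were seen for neuron markers (2 of 6 positive, median -0.34) and astrocyte markers (3 of 5, median 0.26). The same held for meninges and fibroblast markers (3 of 5, median 0.13). None of these passed the threshold, and their part in the ribosomal protein differences was not tested.

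The highest group mean was found in SMA for 32 of the 44 genes, in transplanted SMA for 8 and in wild type for 4. Within the small subunit these counts were 18, 3 and 0, and within the large subunit 14, 5 and 4. In 8 genes every SMA array was above every wild-type array and in 0 genes below, against 5.31% and 6.06% of all tested probe sets. The 8 were the stalk genes Rplp0 and Rplp2, the large subunit genes Rpl11, Rpl38 and Rpl41, and the small subunit genes Rps19, Rps25 and Rps27.

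**Figure D2:**
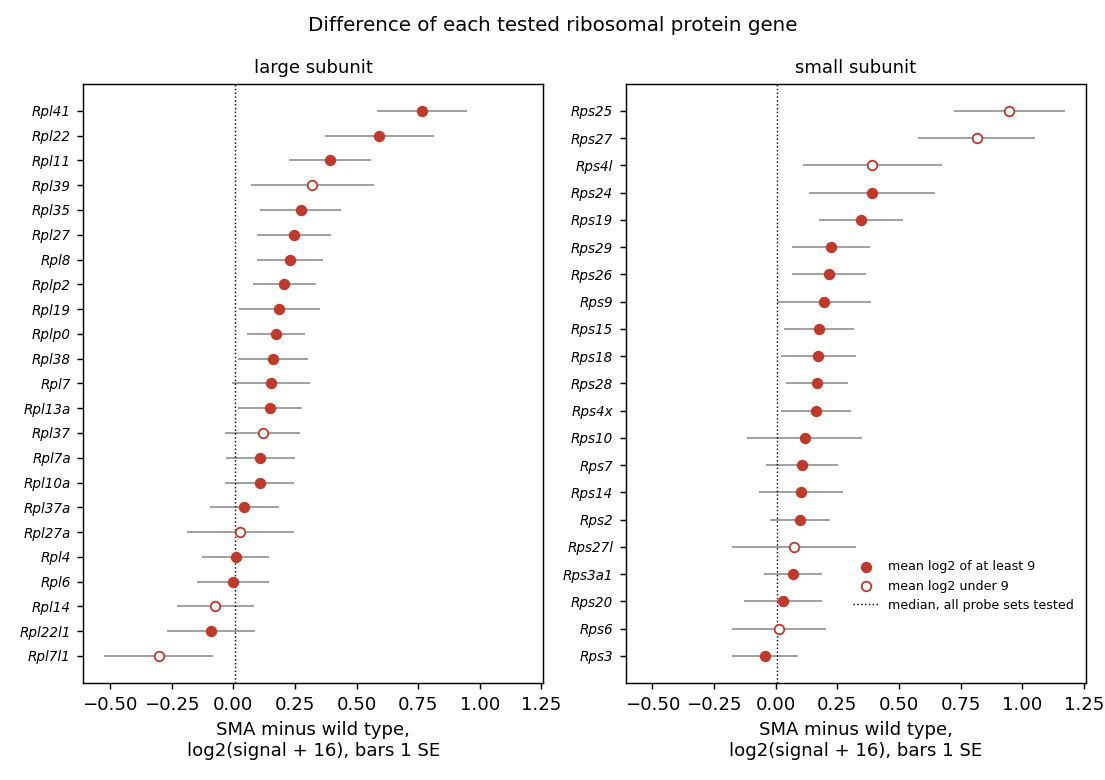
SMA minus wild type for the 23 large and 21 small subunit genes tested, as log2(signal + 16) difference with bars of 1 SE; the dotted line is the median of all tested probe sets. Of the 44 points 39 lie above 0, open points are genes with a mean log2 under 9, and Rps25, Rps27 and Rpl41 lie farthest out.

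The ribosomal stalk recruits the elongation factors to the large subunit. Its anchor Rplp0 read 4254.4, 3644.5 and 3589.1 in transplanted SMA, 4123.4, 4030.2 and 4219.8 in SMA, and 3596.8, 3656.1 and 3726.6 in wild type. The SMA arrays were close together and all above the wild-type arrays, and the transplanted arrays reached from below the lowest wild-type value to above the highest SMA value. Rplp0 differed by 0.17 (SE 0.12) between SMA and wild type and by -0.11 (SE 0.12) between transplanted SMA and SMA, neither past the threshold (limma adjusted p = 0.940 and 0.950). Rplp2, one of the acidic proteins of the stalk, read 3877.1, 3255.3 and 3432.5 in transplanted SMA, 3760, 3399.6 and 3661.3 in SMA, and 2890.8, 3098.4 and 3392.5 in wild type. SMA and wild type were again apart, by a small margin, with a difference of 0.21 (SE 0.13, limma adjusted p = 0.908). The partner Rplp1 had no probe set of its own; a shared one gave 3496.1, 3968.9 and 3553.9 in transplanted SMA, 4601.7, 3466.2 and 3843.8 in SMA, and 3318.7, 3281.7 and 3668 in wild type, where the groups overlapped.

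In the large subunit, Rpl41, a very short basic protein at the subunit interface, had the smallest p of its subunit. It read 5092.4, 3172 and 3329.6 in transplanted SMA, 5788.4, 4892.8 and 4486.9 in SMA, and 3029.7, 2765.5 and 3063.1 in wild type. All SMA arrays were far above the wild-type arrays, and transplanted SMA 1 lay among the SMA arrays while the others of its group lay just above wild type. The SMA difference was 0.77 (SE 0.18, limma adjusted p = 0.459). Rpl41 had 2 further tested probe sets that name it alone, and these gave 0.19 (SE 0.14) and 0.002 (SE 0.21) for SMA minus wild type.

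Rpl22 also binds RNAs outside the ribosome and is needed for T cell development in mice. It read 884.6, 652.8 and 712 in transplanted SMA, 557.9, 866.9 and 812.7 in SMA, and 382.2, 579.3 and 502.7 in wild type. SMA 1 lay within the wild-type range, while all transplanted arrays were above wild type. The differences were 0.59 (SE 0.22) for SMA and 0.61 (SE 0.22) for transplanted SMA, each minus wild type (limma adjusted p = 0.732 and 0.699). A second probe set of Rpl22 gave 0.20 (SE 0.26) and -0.004 (SE 0.26).

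Rpl11 and Rpl5 bind 5S RNA and, when not built into ribosomes, hold back MDM2 so that p53 accumulates. Rpl11 read 1219.8, 1059 and 1335.7 in transplanted SMA, 1514.2, 1339.5 and 1207.9 in SMA, and 1039.2, 881 and 1171 in wild type. SMA and wild type did not overlap, by a narrow margin, and the transplanted arrays overlapped both. Rpl11 differed by 0.39 (SE 0.17, limma adjusted p = 0.807) between SMA and wild type. Rpl5 was read only by probe sets shared with copies, and the brightest had 4570.2, 4421.7 and 4513.1 in transplanted SMA, 4320.9, 4318.5 and 5503.2 in SMA, and 3861.8, 3888 and 4724.7 in wild type, where the groups overlapped and SMA differed from wild type by 0.18 (SE 0.14). At 2 dimmer shared probe sets of Rpl5 every SMA array was above every wild-type array, with differences of 0.55 (SE 0.19) and 0.49 (SE 0.22) and limma adjusted p of 0.693 and 0.825. Rpl13a, which in human cells also silences messages after interferon, differed by 0.15 (SE 0.13) between SMA and wild type. Its further probe sets that name it alone gave -0.06 (SE 0.17), -0.15 (SE 0.23) and 0.15 (SE 0.17). A brighter shared one gave 0 (SE 0.14), so the sign depended on the probe set.

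Rpl38, which in mice is needed for translation of Hox messages in the embryo, read 3480, 2690.9 and 2754.9 in transplanted SMA, 3160.2, 2644.7 and 2819 in SMA, and 2625.8, 2488.1 and 2572.9 in wild type. Wild type was lowest throughout, and transplanted SMA and SMA overlapped. Rpl38 differed by 0.16 (SE 0.14) between SMA and wild type and by 0.205 (SE 0.14) between transplanted SMA and wild type (limma adjusted p = 0.986 and 0.869).

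In the small subunit, Rps25, which many viral internal ribosome entry sites need, had the largest difference of all. It read 131, 85.4 and 76.3 in transplanted SMA, 109.5, 174 and 129.5 in SMA, and 55.7, 58.6 and 74.6 in wild type. The SMA arrays were all above wild type, and the transplanted arrays were above wild type too, the lowest of them barely so. The SMA difference was 0.95 (SE 0.225, limma adjusted p = 0.459). Rps27, a zinc finger protein on the solvent side, read 33.3, 66.6 and 73.9 in transplanted SMA, 70.5, 57.3 and 83.2 in SMA, and 27.5, 38 and 33.2 in wild type. Again no SMA array reached down to wild type, while transplanted SMA 1 lay within the wild-type range. Rps27 differed by 0.815 (SE 0.24, limma adjusted p = 0.568) between SMA and wild type.

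Rps19, the gene most often mutated in the human bone marrow failure Diamond-Blackfan anaemia, read 978.7, 999.3 and 1202.4 in transplanted SMA, 1115.3, 1513.3 and 1200.2 in SMA, and 1102.2, 995.8 and 888.1 in wild type. The lowest SMA value lay just above the highest wild-type value. Its difference was 0.35 (SE 0.17, limma adjusted p = 0.846). Rps6, whose protein is phosphorylated by the S6 kinases downstream of mTOR, differed by 0.01 (SE 0.19) at its own dim probe set and by 0.055 at a brighter shared one. Rps14, whose loss causes the anaemia of the human 5q- syndrome, differed by 0.10 (SE 0.17). The groups overlapped for Rps14 and for Rps6 at the probe sets just given, while 1 further shared probe set of Rps6 had SMA apart from wild type at 0.17 (SE 0.12) and transplanted SMA apart from wild type at 0.16 (SE 0.12).

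**Figure D3:**
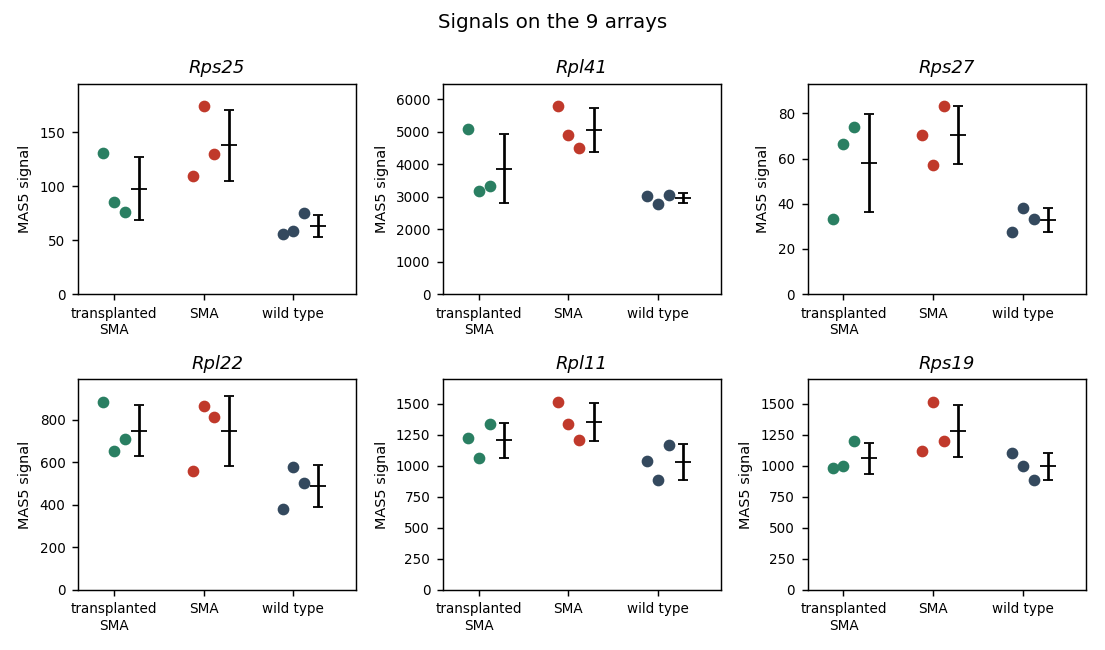
MAS5 signals on the 9 arrays (points) with the mean and SD of each group of 3 (bars) for the 6 genes with the smallest unadjusted p in SMA minus wild type; each axis starts at 0. SMA lies above wild type on every array for all but Rpl22, and transplanted SMA overlaps SMA in each panel.

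Values without single arrays were close to these. The median over the 44 genes ran from 0.12 to 0.20 when each array was left out in turn, and it was 0.19 without wild type 3, the wild-type array with the highest 18S signal. Without SMA 1 and SMA 2, which had the muscle transcripts and high Xist, it was 0.16. That value rests on SMA 3 as the only SMA array left, which had the highest actin 3′/5′ ratio (4.32). The part of muscle transcripts or sex was not tested by it. The median was 0.165 for the 34 brighter genes and 0.10 for the 10 tested genes under a mean of 9. For the 25 readable genes never named alone it was 0.15, with 22 positive, and 33 of 37 other probe sets of the members were positive, with a median of 0.17.

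The comparison of transplanted SMA with SMA asks what the transplant altered in these messages. It shares the SMA arrays with the comparison above, so the directions of both are not independent. No ribosomal protein gene passed (0 of 44; smallest limma adjusted p = 0.933), nor did any other probe set (0%). Of the 44 genes 9 were positive and 35 negative, where 50.3% of all tested probe sets were positive. Of the other cell types' markers, 0 of 6 were positive for microglia (median -0.81) and 0 of 4 for muscle (median -1.87), while 5 of 5 were for oligodendrocytes (median 0.45) and 5 of 5 for meninges and fibroblasts (median 0.40). Neuron markers were positive for 4 of 6 (median 0.32) and astrocyte markers for 4 of 5 (median 0.26). The part of any of these markers was not tested. The ribosomal protein median was -0.11, with -0.11 for the large and -0.13 for the small subunit, against 0.001 for all tested probe sets and 0.03 for the other bright ones. At an unadjusted p under 0.05, 1 gene was higher and 1 lower, where 2.32% and 2.46% of all tested probe sets were.

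Groups did not overlap for 2 genes higher and 3 lower in transplanted SMA, against 4.43% and 4.68% of all tested probe sets. The higher ones were Rpl37 and Rpl39, and the lower ones Rpl13a, Rpl19 and Rpl35, all of the large subunit at the probe sets used. Further probe sets that name a gene alone also set small subunit genes apart. There Rps7 gave -0.51 (SE 0.19) and Rps28 -0.38 (SE 0.16), both lower, and Rps24 gave 0.21 (SE 0.16), higher. No trait of one subunit is therefore read from these genes. Rpl37, a zinc finger protein deep in the rRNA, read 110.7, 92.3 and 94.2 in transplanted SMA, 71.7, 77 and 76 in SMA, and 72.3, 66.1 and 64.9 in wild type. The transplanted arrays were above all others, with differences of 0.34 (SE 0.15) from SMA and 0.455 (SE 0.15) from wild type (limma adjusted p = 0.933 and 0.698). Its 3 shared probe sets went the other way, and the brightest of them gave -0.28 (SE 0.24) and -0.15 (SE 0.24).

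Rpl39 is a small protein of the tunnel through which new chains leave the ribosome, and its gene is X-linked. It read 99.4, 96.3 and 124.5 in transplanted SMA, 90, 57.1 and 70.3 in SMA, and 79.4, 57.5 and 32.9 in wild type. All transplanted arrays lay above all others, with differences of 0.48 (SE 0.25) from SMA and 0.80 (SE 0.25) from wild type (limma adjusted p = 0.933 and 0.629). At a brighter shared probe set these were 0.14 (SE 0.15) and 0.06 (SE 0.15), and all groups overlapped. Xist also differed between these groups, as given above. The other X-linked member, Rps4x of the small subunit, read 3659.9, 3767.7 and 4555.8 in transplanted SMA, 4375, 3998.3 and 4461.9 in SMA, and 3431.9, 3638.6 and 4444.8 in wild type, where all groups overlapped. X-linked Rpl10, among the last proteins to join the large subunit, was read only at probe sets shared with copies, and the brighter had 4365.9, 3552.6 and 3929.1 in transplanted SMA, 3430.3, 4068.7 and 4235.3 in SMA, and 3930.2, 3756.8 and 4220.9 in wild type, which overlapped as well; at the other, SMA lay above wild type throughout, by 0.19 (SE 0.15). X-linked Rpl36a has no value here.

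On the lower side, Rpl19, which forms a bridge between the subunits, read 2060.5, 1940.6 and 1625.1 in transplanted SMA, 2377.5, 2167.6 and 2578.3 in SMA, and 1836.4, 1932.2 and 2535.4 in wild type. Transplanted SMA lay below SMA throughout and overlapped wild type, and the difference from SMA was -0.34 (SE 0.16, limma adjusted p = 0.933). Rpl13a read 3384.7, 3086.5 and 2795.7 in transplanted SMA, 3834.1, 3396.8 and 3547.8 in SMA, and 3250.5, 2969.7 and 3506 in wild type, and differed from SMA by -0.22 (SE 0.13) with an equal adjusted p, but by 0.013 (SE 0.14) with overlapping groups at its brighter shared probe set. Rpl35, near the exit of the tunnel, read 1874.4, 1831 and 1911.9 in transplanted SMA, 2096.1, 2568.6 and 2184.3 in SMA, and 1599.9, 1762.4 and 2348.6 in wild type. For Rpl13a and Rpl35 alike at their own probe sets, transplanted SMA lay below SMA and within the range of wild type or close to it. Rpl41 gave -0.41 (SE 0.18), while its other probe sets gave 0.15 and 0.275, in the opposite direction. Rps25 gave -0.445 (SE 0.225) and Rps27 -0.26 (SE 0.24), with their brighter shared probe sets described further on.

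The 4 paralogues that were bright enough to test did not share one direction. Rps4l, a paralogue of Rps4x, read 36.5, 50.6 and 46.2 in transplanted SMA, 94.1, 100.4 and 41.4 in SMA, and 57.7, 69.2 and 35.9 in wild type. Its high values were on SMA 1 and SMA 2, the difference of transplanted SMA from SMA was -0.59 (SE 0.28, limma adjusted p = 0.933), and without those arrays it turned to 0.07. Rps27l, a paralogue of Rps27 that p53 induces, gave 0.075 (SE 0.25) for SMA minus wild type and 0.27 (SE 0.25) for transplanted SMA minus SMA. Further probe sets of Rps27l gave 0.135 and 0.38 in the first of these comparisons and 0.08 and 0.03 in the second. Rpl22l1, a paralogue of Rpl22, gave -0.09 (SE 0.18) and -0.003 (SE 0.18), and Rpl7l1, a paralogue of Rpl7 found in ribosome precursors, -0.30 (SE 0.22) and 0.235 (SE 0.22). Another probe set of Rpl7l1 gave -0.08 (SE 0.25) and -0.10 (SE 0.25), so its second sign depended on the probe set. None of these passed the threshold.

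Transplanted SMA was last compared with wild type, which shares an array group with each comparison above. The result was 0 of 44 genes past the threshold (0% of all tested probe sets; smallest limma adjusted p of a member 0.629), with 27 of 44 positive where 48.5% of all tested probe sets were. The median was 0.04, and it turned to -0.04 with arrays centred on their medians and to -0.01 with quantile normalisation, with 16 and 19 of 44 positive, so no direction is given for the group. Medians were 0.06 for the large and 0.03 for the small subunit. At an unadjusted p under 0.05, 5 genes were higher and 0 lower, where 3.27% and 3.28% of all tested probe sets were. Groups did not overlap for 6 higher genes (Rpl22, Rpl37, Rpl38, Rpl39, Rpl41 and Rps25) and 2 lower ones (Rpl4 and Rps20), against 7.11% and 7.04%. Rpl4, a protein of the tunnel wall, read 2724.5, 2984.9 and 2971.3 in transplanted SMA and 3471.7, 3021.2 and 3438.6 in wild type. Rps20 of the small subunit head read 1620.7, 1679.5 and 1609.7 in transplanted SMA and 1735, 1748.2 and 1730.1 in wild type. Both were separated by narrow margins, and a further probe set of Rps20 gave 0.05 (SE 0.21) with overlapping groups. Differences were 0.55 (SE 0.24) for Rps27, 0.50 (SE 0.225) for Rps25 and 0.35 (SE 0.18) for Rpl41, with limma adjusted p of 0.751, 0.754 and 0.778. At brighter shared probe sets Rps27 gave 0.009 (SE 0.18) and Rps25 0.41 (SE 0.20).

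Several of the largest differences came from dim probe sets of genes whose brighter probe set also names copies. Ribosomal protein genes have many processed pseudogenes with nearly the same sequence, so a probe set can read several of them at once. For 10 members the probe set naming the gene alone was dimmer than a shared one, and 9 of these could be compared at both. In SMA minus wild type Rps25 gave 0.95 (SE 0.225) alone and 0.30 at the shared probe set, where it read 1305.4, 1318.2 and 1638.8 in transplanted SMA, 1065.2, 1458.1 and 1433.5 in SMA, and 816.6, 1173.1 and 1236.7 in wild type. At the shared probe set SMA and wild type overlapped, and the transplanted arrays were above all wild-type arrays. In the same comparison Rps27 gave 0.815 alone and 0.22 shared, and Rpl39 0.32 alone and -0.07 shared.

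For transplanted SMA minus SMA, Rpl37 gave 0.34 alone and -0.28 shared, and Rps25 -0.445 alone and 0.11 shared, so the sign depended on the probe set. The sign also turned for Rpl13a (-0.22 alone and 0.013 shared) and for Rps2 of the mRNA entry channel (-0.07 alone and 0.11 shared). Both probe sets had the same sign in 5 of the 9 genes in SMA minus wild type, in 5 in transplanted SMA minus SMA, and in 6 for transplanted SMA against wild type. The difference was larger in size at the dim probe set in 6, 7 and 7 of them. Rpl12, which was too dim at its own probe set, gave 0.315 (SE 0.15) for SMA minus wild type and -0.32 (SE 0.15) for transplanted SMA minus SMA at the brightest shared one, and -0.04 and 0.02 (SE 0.24 each) at another.

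**Figure D4:**
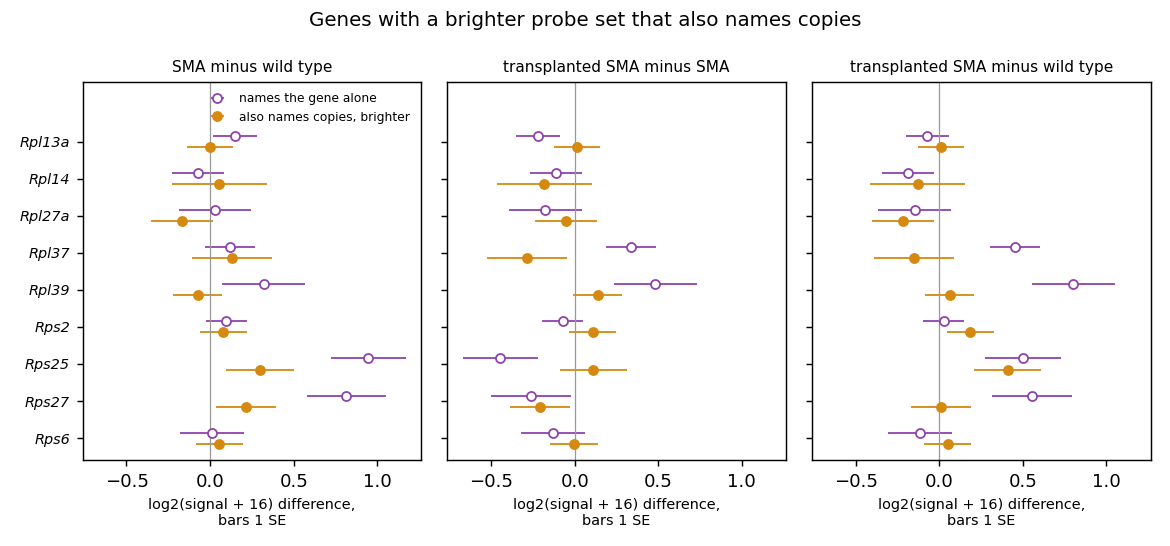
Log2(signal + 16) differences with bars of 1 SE in 3 comparisons for the 9 genes that have a dimmer probe set naming them alone (open) and a brighter one that also names copies (filled). Rps25, Rps27 and Rpl39 lie farther from 0 at the open points in SMA minus wild type, and Rpl13a, Rpl37, Rps2 and Rps25 change sign between probe sets in transplanted SMA minus SMA.

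Among genes with several tested probe sets that name them alone, all probe sets agreed in direction for 17 of 19 in SMA minus wild type, 13 in transplanted SMA minus SMA and 7 in transplanted SMA minus wild type. Of 82 tested shared probe sets of ribosomal protein genes, 68, 26 and 52 were positive in the same order of comparisons, with medians of 0.14, -0.09 and 0.05. The small one-sided difference in SMA was seen at probe sets of both kinds. Both kinds read the same mice, often with several probe sets per gene, so this is not a second observation.

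Other genes of translation were read for comparison, and in none of the lists did a gene pass the threshold (0 of the tested genes in each direction and comparison). Further genes with a TOP message or a ribosome part named otherwise, such as Rpsa, Fau and the elongation factors, had a median of 0.23 in SMA minus wild type with 15 of 16 positive, -0.085 in transplanted SMA minus SMA with 5 positive, and 0.13 in transplanted SMA minus wild type with 14 positive. Among them, Eif3f of the initiation factor eIF3 gave 0.27 (SE 0.12) and Eef1d of the elongation factor eEF1 0.30 (SE 0.16) in SMA minus wild type, Eif4b, a helper of the helicase eIF4A, -0.365 and Eef1b2, also of eEF1, -0.21 in transplanted SMA minus SMA, and Pabpc1, the poly(A) binding protein, -0.28 in transplanted SMA minus wild type. In the last comparison the splicing protein gene Hnrnpa1 gave 0.31.

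Genes that make ribosomes did not share this side. The 27 tested had a median of 0.03 in SMA minus wild type (15 positive), of 0.06 in transplanted SMA minus SMA (17 positive), and of -0.01 in transplanted SMA minus wild type (13 positive). In SMA minus wild type Nip7, needed for pre-rRNA processing, gave 0.64 (SE 0.20) and Rrp9, of the U3 particle, -0.88 (SE 0.35). In transplanted SMA minus SMA Bysl of the small subunit precursor gave 0.47 and nucleolin (Ncl) -0.41, and in transplanted SMA minus wild type Nip7 gave 0.66 and fibrillarin (Fbl), the rRNA methyltransferase, -0.45. The 11 tested genes that control TOP translation had medians of -0.008, 0.002 and 0.065 in these comparisons. Of these, the transcription factor Myc gave 0.52 (SE 0.21) and the cap-binding inhibitor Eif4ebp2 0.34 in SMA minus wild type, and in transplanted SMA minus SMA the TOP-binding protein Larp1 gave 0.46 and the mTOR inhibitor Tsc1 -0.60. Tsc1 gave -0.32 and Tsc2 0.31 in transplanted SMA minus wild type.

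The proteins of the mitochondrial ribosome, a separate ribosome that translates mitochondrial messages, lay on the other side of the arrays. Of the 74 tested 23 were positive in SMA minus wild type, with a median of -0.07; 43 were positive in transplanted SMA minus SMA (median 0.06) and 27 in transplanted SMA minus wild type (median -0.06). Their median deviation by array was -0.03, -0.02 and 0.03 in transplanted SMA, -0.02, -0.09 and -0.08 in SMA, and 0.10, 0.06 and 0.05 in wild type. All SMA arrays were below 0 and all wild-type arrays above 0, the reverse of the order for the cytosolic genes on SMA 1 to 3 and wild type 1 and 2. In SMA minus wild type Mrps25 gave -0.53 (SE 0.18) and Mrpl42 -0.48 (SE 0.18), in transplanted SMA minus SMA Mrps14 -0.46 and Mrpl28 0.60, and in transplanted SMA minus wild type Mrpl28 0.88 and Mrps14 -0.48, all components of that ribosome. The difference between the cytosolic and mitochondrial sets was not tested. The 46 tested translation factors had medians of 0.03, -0.02 and 0.06 in the same order. Eif4ebp2 gave -0.255 in transplanted SMA minus SMA, and in transplanted SMA minus wild type Eef1e1, a scaffold of tRNA synthetases, gave -0.28 and the X-linked initiation factor gene Eif2s3x 0.445.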

How the data were processed

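MAS5 signals were deposited, per the submitters' processing notes, as a linear intensity for each probe set; the mean after trimming 2% at each end was 100.0 on all 9 arrays, so this scaling was kept. Per the labels' protocols, cRNA was amplified in a double procedure meant for small samples. Each array is described as holding cells of 1 animal, about 100 per cap, so replicates were taken as animals. With 3 arrays per group the precision is limited. Of 22690 probe sets, 64 controls were left out; 20380 named 1 symbol in the platform annotation, 691 several and 1555 none, and all 47 member symbols were the same in RefSeq.

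Signals were taken to log2(signal + 16), which shrinks the differences of dim genes. The brighter 50% (11313 probe sets, lowest mean 5.63) was fitted with limma 3.58.1 in R 4.3.3 (lmFit, eBayes with trend) in 1 model with a mean per group. Tests were two-sided, and p-values were adjusted by Benjamini-Hochberg over all 11313 within each of 3 comparisons (threshold 0.05). The script was tested on simulated data. Signals of 2 probe sets do not measure message on 1 scale; ranks, shares of summed signal and the words bright and dim describe signal only. The members and lists were chosen with earlier results of these data known. Named genes were, per comparison, the 6 members with the smallest unadjusted p, to which came a fixed set (stalk, X-linked, paralogue and well-studied genes), the 3 largest and smallest SDs, and 2 genes per other list. Genes whose groups did not overlap were named as a count. The paralogue Rpl10l and the binding protein Rps19bp1 were not analysed here.

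Alternatives were quantile normalisation, median centring, pseudocounts of 1 and 64, no filter and the brightest 25%, other variance models, array weights, only the 6 arrays compared, the sample number as a block, other probe set choices and leaving out each array. Chosen after seeing the data were the set including shared probe sets, leaving out paralogues, only members with a mean of at least 9, and leaving out SMA 1 and SMA 2.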

Additional observations from a re-analysis of the deposited data

How the results depend on the processing

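Over 26 alternatives 0 members passed an adjusted p of 0.05 in any comparison (smallest limma adjusted p 0.142 for SMA minus wild type, 0.385 for transplanted SMA minus SMA and 0.331 for transplanted SMA minus wild type). The members' median ran from 0.10 to 0.20, from -0.16 to -0.09 and from -0.042 to 0.085 in these comparisons, and from 0.12 to 0.20, -0.16 to -0.09 and -0.007 to 0.085 when 1 array was left out; the value of -0.042 came with median centring. Arrays were not taken as paired by their sample numbers, since the labels name no shared litter or day and 6 of 9 same-numbered pairs, not all, correlated over 0.1 in their deviations (-0.08 to 0.45; 0.14 to 0.45 for the number 3; other pairs -0.47 to 0.33). With the number as a replicate block the medians were 0.16, -0.11 and 0.04 with 0 calls. Large minus small was 0.084 with the brightest 25% and -0.097 without SMA 1 and SMA 2 for SMA minus wild type. For transplanted SMA minus SMA it was 0.118 without SMA 1 and SMA 2 and ran from -0.039 to 0.10 with 1 array left out, the highest without SMA 1. Signs turned for Rpl41 in transplanted SMA minus SMA with the mean of its probe sets (0.005), for Rps4l without SMA 1 and SMA 2 (0.067), and with shared probe sets for Rpl37 (-0.28) and Rps25 (0.11) in that comparison and for Rpl37 in transplanted SMA minus wild type (-0.15); beyond the change of probe sets or arrays itself, the cause was not tested. Chips with 3 animals a group leave an SE of 0.12 to 0.28 per gene, so differences near the median of 0.16 could not be detected for single genes.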
